A study of Homo sapiens with 9 samples.

Results

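Messenger RNA of 40 genes for regulators of pre-mRNA splicing was followed in HCCLM3 cells given quercetin. The genes were chosen by symbol alone, as the rows of the expression table whose symbol is SRSF with a number, begins with HNRNP, or is CLK1, CLK2, CLK3 or CLK4. This rule found 12 SRSF genes, 24 HNRNP genes and 4 CLK genes among 17492 genes. HCCLM3 is an established human hepatocellular carcinoma line of high metastatic potential, of wild-type genotype by its labels in all samples. The cells received the solvent DMSO (control, 3 samples) or quercetin, a plant flavonol, at 50 µM or 100 µM (3 samples for each dose). The labels do not state how long the cells were exposed. All samples come from 1 cell line, and whether the replicates were separate cultures is not stated either, so a p-value here reflects the spread among these samples alone, which may be technical.

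SR proteins, the products of the SRSF genes, bind exons through RNA recognition domains and help the spliceosome to choose splice sites through tails rich in arginine and serine. CLK kinases phosphorylate those tails in the nucleus and release SR proteins from nuclear speckles, where they are stored. HNRNP proteins coat the nascent transcript and often act against SR proteins at the same exon, besides roles in RNA export, stability and translation. Many SR and HNRNP genes limit their own mRNA through exons whose inclusion leads to nonsense-mediated decay, and CLK1 transcripts are known to be held in the nucleus with retained introns. In the liver, Srsf3 is required in mice for hepatocytes to mature, and SRSF1 acts as a proto-oncogene in several tissues.

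Promoter stretches of 4 genes are shown because these passed the test at 1 of the doses or between them, and because each has an upstream stretch without annotated exons. They are RefSeq sequences on GRCh38.p14, read 5′ to 3′ on the gene's strand, each being the longest exon-free run within the 250 bases before the start. Capitals mark matches, on either strand, to any of the 7 short promoter motifs that are spelled out in the paragraph after the sequences.
SRSF3: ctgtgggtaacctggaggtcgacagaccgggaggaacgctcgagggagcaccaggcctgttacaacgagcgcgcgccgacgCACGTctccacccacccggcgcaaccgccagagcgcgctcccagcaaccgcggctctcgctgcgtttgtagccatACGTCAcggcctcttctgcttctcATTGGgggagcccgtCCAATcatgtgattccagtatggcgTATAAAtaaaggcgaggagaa
SRSF8: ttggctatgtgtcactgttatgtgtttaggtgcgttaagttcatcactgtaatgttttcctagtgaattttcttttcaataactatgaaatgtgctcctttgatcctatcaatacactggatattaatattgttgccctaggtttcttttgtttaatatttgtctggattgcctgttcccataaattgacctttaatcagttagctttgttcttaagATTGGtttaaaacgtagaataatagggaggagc
HNRNPH2: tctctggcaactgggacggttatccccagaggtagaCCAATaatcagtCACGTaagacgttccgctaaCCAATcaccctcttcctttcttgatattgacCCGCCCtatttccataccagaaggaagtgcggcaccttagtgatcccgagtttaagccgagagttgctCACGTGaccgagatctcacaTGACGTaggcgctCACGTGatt
CLK1: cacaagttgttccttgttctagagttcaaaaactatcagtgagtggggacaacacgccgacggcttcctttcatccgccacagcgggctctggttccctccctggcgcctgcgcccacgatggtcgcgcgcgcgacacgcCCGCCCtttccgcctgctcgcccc

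The SRSF3 stretch (chr6:36594112-36594352, plus strand) held 2 CCAAT boxes, 1 TATA box, 1 cAMP response core and 1 hypoxia response core. The SRSF8 stretch (chr11:95066627-95066876, plus strand) held 1 CCAAT box and 0 GC boxes, and the CLK1 stretch (chr2:200864745-200864908, minus strand) held 1 GC box. The HNRNPH2 stretch (chrX:101408013-101408221, plus strand) held 2 E boxes, 2 CCAAT boxes, 1 GC box, 1 cAMP response core and 5 hypoxia response cores over both strands, of which 1 lies outside the E boxes. A 300-base window from 250 bases before to 50 bases after the start was found for 38 of the 40 members, not for HNRNPA1 and SRSF2. The E box, with the letters CACGTG, was in 9 of the 38 windows (23.68%), against 10.15% of the windows of 10380 tested genes. The hypoxia response core, with the letters ACGTG, which every E box also contains, was in 17 (44.74%, against 26.47%). The CCAAT box, named by its letters, was in 18 of the members' windows (47.37%, against 36.62%). The TATA box, with the letters TATAAA, was in 5 windows of members (13.16%, against 5.877%). The cAMP response core, with the letters TGACGT, was in 7 windows of members (18.42%, against 11.61%). The GC box, with the letters GGGCGG, was in 24 windows of members (63.16%, against 68.99%). The ETS core, with the letters CCGGAA, was in 7 windows of members (18.42%, against 29.69%). The members' windows include HNRNPCL1, HNRNPCL2 and HNRNPCL4, whose counts were too low to be tested, while the other shares cover tested genes alone. None of these copies has a GC box, so the GC box shares do not show a lower frequency in tested members. HNRNPCL1 and HNRNPCL2 add to the CCAAT box, HNRNPCL2 to the hypoxia response core and HNRNPCL4 to the cAMP response core. These matches describe letters in the windows and were not tested.

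The 9 libraries held between 20061136 and 21599805 estimated counts each, and 12832 genes passed the filter on low counts. 2 of the libraries stood apart from their groups. The chi-square per gene between 100 µM replicate 3 and the other 100 µM libraries was 84.28 and 86.35, against 5.082 between those other libraries, and that between control replicate 1 and the other controls was 28.18 and 28.07, against 3.634. Results are therefore also given without these libraries. Of the line's labelled origin, the keratin genes KRT8 (2645 to 3726 CPM) and KRT18 (716 to 1434 CPM) were high, while the hepatocyte genes APOA1, CYP3A4, TTR and SERPINA1 did not exceed 1.27 CPM in any library and ALB lay between 0.814 and 16.3 CPM. The 12 hepatocyte markers in the table summed to 198.6 to 214 CPM in the controls, 314 to 331 at 50 µM and 322 to 367 at 100 µM. Of 5 immune markers, CD68 gave nearly all of the summed level (138.5 to 199 CPM in the controls, 128 to 144 at 50 µM, 216 to 296 at 100 µM), while CD3E stayed under 0.05 CPM. The part of cell composition in the results below was not tested.

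Of the 40 members, 37 passed the filter. HNRNPCL1, HNRNPCL2 and HNRNPCL4, which are copies related to HNRNPC, did not exceed 0.192 CPM in any library. At 100 µM, SRSF1, SRSF2, SRSF3, SRSF8, HNRNPA2B1, HNRNPA3, HNRNPH1, HNRNPH3 and HNRNPL fell against the control, and CLK1 and SRSF9 rose. These 2 rises and 9 falls among 37 members stand beside 21.0% of all tested genes that passed (10.7% higher, 10.3% lower; edgeR's quasi-likelihood test, adjusted p under 0.05 over all genes), and DESeq2 called 2 higher and 13 lower (25.8% of all genes). At 50 µM, where 11.6% of all genes passed (5.28% higher, 6.31% lower), HNRNPC rose and 0 members fell. At an unadjusted p under 0.05, 6 members were higher and 2 lower there, beside 15.2% and 17.0% of all genes, and DESeq2 called 5 higher and 1 lower (20.0% of all genes). Between the doses, where 4.15% of all genes passed (2.25% higher, 1.89% lower), SRSF1, SRSF3, SRSF7, SRSF10 and HNRNPH2 were lower at 100 than at 50 µM, and 0 members were higher. At an unadjusted p under 0.05, 2 members were higher and 16 lower between the doses, beside 11.4% and 10.6% of all genes, and DESeq2 called 1 higher and 10 lower (10.4% of all genes).

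The median log2 fold change of the 37 members was 0.000 at 50 µM, -0.14 at 100 µM and -0.17 between the doses, against 0.003, 0.001 and 0.012 over all 12832 genes. At 100 µM 27 of the 37 members had a negative fold change, and 31 were lower at 100 than at 50 µM. In 16 members all 3 libraries at 100 µM lay below all 3 controls, and in 3 all lay above, where 35.9% of all genes did not overlap. At 50 µM 6 members lay wholly below and 10 wholly above the controls (49.0% of all genes), and between the doses 20 lay wholly below and 3 wholly above (27.7%). 11 members were above the control at 50 µM and below it at 100 µM, 16 were below it at both doses, 8 above it at both and 2 below it at 50 µM and above it at 100 µM. Over all genes these numbers were 1509, 4896, 4961 and 1466. Both doses were set against the same 3 control libraries.

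**Figure D1:**
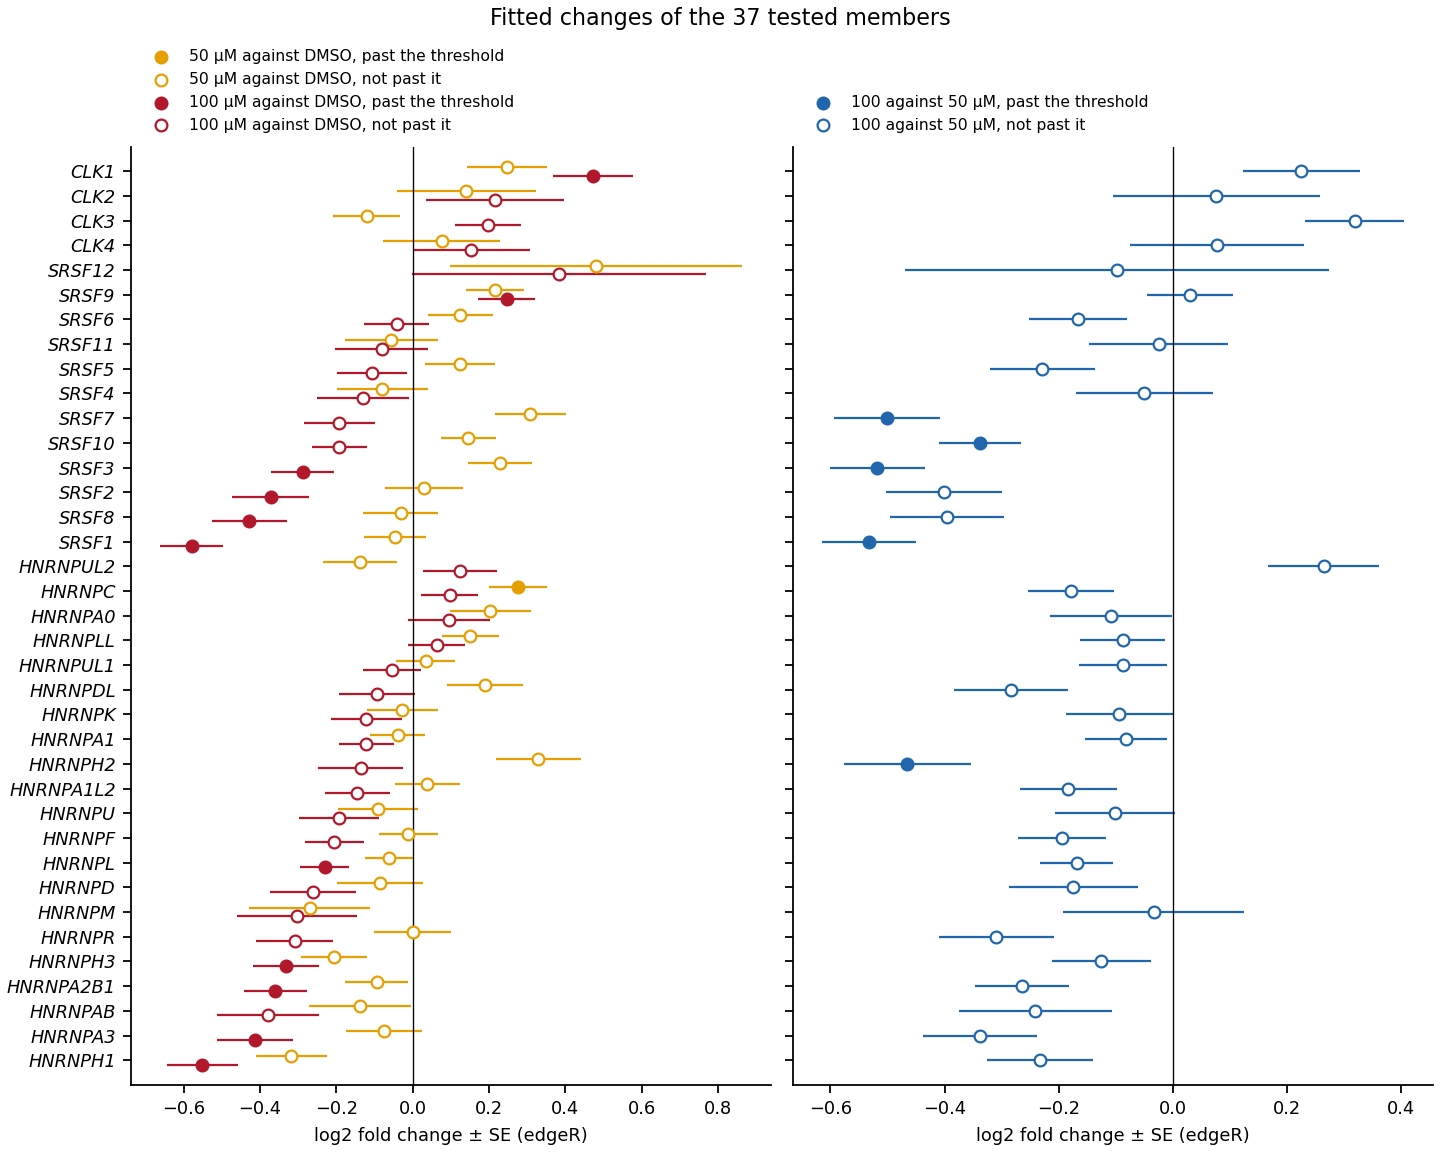
Log2 fold change with its standard error for each of the 37 tested members, at 50 and 100 µM against DMSO (left) and at 100 against 50 µM (right), with filled points for members past the threshold. The 100 µM points run from -0.58 for SRSF1 to 0.47 for CLK1, and all 5 filled points on the right are negative.

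Without control replicate 1 and 100 µM replicate 3, 4 members rose and 17 fell at 100 µM, where 48.6% of all genes passed. In that fit 13 rose and 6 fell at 50 µM (57.4% of all genes), and 3 were higher and 19 lower between the doses (47.3%). The 11 members called at 100 µM and the 5 called between the doses were all among them, with the same direction. Without 100 µM replicate 3 alone the members' counts were 7 higher and 2 lower at 50 µM (36.6% of all genes), 4 and 15 at 100 µM (29.8%), and 2 and 11 between the doses (27.5%). Leaving out any other single library left between 3 and 10 members called at 100 µM, with 3 without control replicate 3. Of the calls between the doses, 0 were left without any 1 of the 50 µM libraries, and HNRNPC at 50 µM kept its call only without 100 µM replicate 3.

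Among the kinases, CLK1 (chr2:200853009-200864658, GRCh38), which phosphorylates SR proteins, rose at 100 µM. Its normalised read counts were 20.4, 20.8 and 22.7 CPM in the controls, 27.4, 22.9 and 25.5 at 50 µM and 27.7, 28.2 and 32.7 at 100 µM. Every treated library lay above every control, and the 100 µM libraries lay above the 50 µM ones. The log2 fold change was 0.47 ± 0.104 (SE) at 100 µM (edgeR adjusted p = 0.0128) and 0.25 ± 0.104 at 50 µM (adjusted p = 0.136). Without control replicate 2 the 100 µM call was lost (edgeR adjusted p = 0.0551). Gene positions here and below are those of the authors' deposited table.

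CLK2, CLK3 and CLK4 did not pass the edgeR test in any comparison, while DESeq2 called CLK3 between the doses. CLK3 (chr15:74598500-74639716) held 32.5, 38.1 and 38.0 CPM in the controls, 32.5, 32.6 and 34.8 at 50 µM, and 40.0, 41.9 and 42.6 at 100 µM. All 100 µM libraries lay above all others, and the difference between the doses was 0.32 ± 0.0869 (edgeR adjusted p = 0.0698). That difference passed without 100 µM replicate 3 (adjusted p = 0.0275 with edgeR) and without control replicate 1 (0.0375). CLK2 held 30.5, 21.0 and 24.7 CPM in the controls, 28.4, 29.7 and 25.9 at 50 µM, and 24.6, 26.0 and 38.0 at 100 µM. Its groups overlapped, and its highest value was that of 100 µM replicate 3. CLK4 (chr5:178602664-178630615) held 6.66, 7.73 and 7.63 CPM in the controls, 8.30, 8.17 and 6.75 at 50 µM, and 7.02, 7.95 and 9.54 at 100 µM, again with overlap and with the top value in 100 µM replicate 3. Per transcript length, CLK3 was the most abundant of the 4 (42.9 ± 3.20 TPM in the controls, SD, n = 3) and CLK4 the least (6.40 ± 0.43 TPM). The summed level of the 4 kinases was 100.8 ± 2.09 TPM in the controls, 101 ± 2.59 at 50 µM and 116 ± 6.14 at 100 µM, and the 100 µM libraries (111.7 to 123 TPM) lay above all others.

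**Figure D2:**
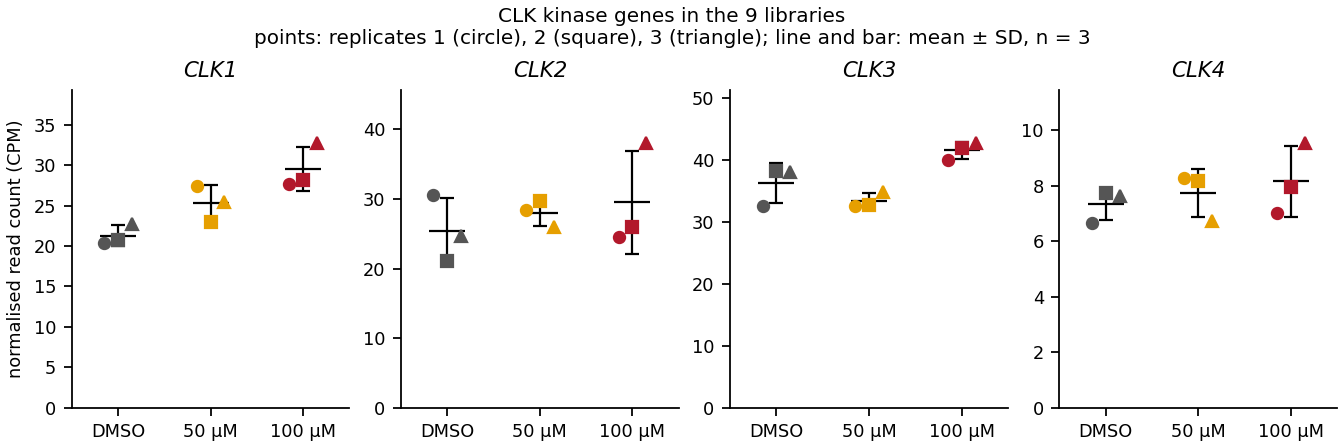
Normalised read counts (CPM) of the 4 CLK genes in each library by group, with the mean and SD of 3 libraries. CLK1 lies between 20.4 and 22.7 CPM in the controls and between 27.7 and 32.7 CPM at 100 µM, and the triangle of 100 µM replicate 3 is the top point in all 4 panels.

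SRSF1 (chr17:58000919-58026637), the first described SR protein and a promoter of exon inclusion, had the largest fall among the members at 100 µM. It held 386, 380.4 and 392 CPM in the controls, 388, 372 and 362 at 50 µM, and 280.1, 261 and 234 at 100 µM. The control and 50 µM libraries overlapped, and all 100 µM libraries lay well below them. The log2 fold change was -0.58 ± 0.082 at 100 µM (edgeR adjusted p = 0.00208), and it passed in each of the 9 fits that left out 1 library, with an adjusted p of at most 0.0152. Between the doses it was -0.53 ± 0.082 (edgeR adjusted p = 0.012), which did not pass without 50 µM replicate 1, 2 or 3 (adjusted p up to 0.0815). In the GENCODE annotation, 56.6% of the exon bases of SRSF1 are shared with AC015813.2 on the same strand, which has no row of its own in the table. The GENCODE start of SRSF1 differs by 2441 bases and its end by -19291 bases from the position given here.

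SRSF3 (chr6:36594362-36605600), the smallest SR protein, which also acts in mRNA export and polyadenylation, was highest at 50 µM and lowest at 100 µM. It held 396, 380.1 and 414 CPM in the controls, 487, 437 and 471 at 50 µM, and 348, 326 and 300.2 at 100 µM. None of the 3 groups overlapped with another. The fall between the doses was -0.52 ± 0.0838 on the log2 scale (edgeR adjusted p = 0.013). Against the control the change was 0.23 ± 0.0836 at 50 µM (adjusted p = 0.0965 with edgeR) and -0.29 ± 0.0837 at 100 µM (adjusted p = 0.0375). The call at 100 µM held only without 100 µM replicate 1 or 3, and elsewhere the edgeR adjusted p rose to as much as 0.153, while the call between the doses was lost without 50 µM replicate 1, 2 or 3 (up to 0.0943).

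SRSF7 (chr2:38743599-38751494), an SR protein with a zinc knuckle that takes part in mRNA export, followed a similar order. Its counts were 177, 151 and 151 CPM in the controls, 206, 187 and 199.7 at 50 µM, and 135, 132 and 152 at 100 µM. The 50 µM libraries lay above all others, and the control and 100 µM groups overlapped. SRSF7 fell between the doses by 0.50 ± 0.0928 in log2 units (adjusted p = 0.0211 in edgeR), a call that held only without any 1 control library or without 100 µM replicate 3 (elsewhere up to 0.126). At 50 µM it was 0.31 ± 0.0926 against the control (adjusted p = 0.0569 with edgeR), and it passed without control replicate 1 (0.0168) or 100 µM replicate 3 (0.00856).

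SRSF10 (chr1:23964347-23980370), an SR protein that represses splicing when dephosphorylated, also fell between the doses. It held 144, 135 and 136 CPM in the controls, 155, 150.0 and 154 at 50 µM, and 119, 115 and 129 at 100 µM. The groups did not overlap, with 50 µM highest and 100 µM lowest. The log2 difference between the doses was -0.34 ± 0.0717 (edgeR adjusted p = 0.0348), which passed only without control replicate 1 or 100 µM replicate 3 when 1 library was left out (elsewhere up to 0.157).

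SRSF8 (chr11:95066877-95071225), a gene that arose from a reverse-transcribed copy of SRSF2, fell at 100 µM. It held 32.3, 28.1 and 28.9 CPM in the controls, 30.6, 30.1 and 26.7 at 50 µM, and 22.9, 20.2 and 23.4 at 100 µM. The 100 µM libraries lay below all others, while the controls and the 50 µM libraries overlapped. The log2 fold change was -0.43 ± 0.0994 (edgeR adjusted p = 0.0163), lost without control replicate 3 (0.0543). SRSF2 itself (chr17:76734115-76737411), a classical marker of nuclear speckles, held 261, 208 and 229 CPM in the controls, 244, 238 and 230.0 at 50 µM, and 195, 182 and 162 at 100 µM. Here too the 100 µM libraries were the lowest of all, with control replicate 1 the highest. SRSF2 fell by 0.37 ± 0.102 in log2 units (adjusted p = 0.0299 in edgeR), a call that held only without control replicate 2 or 100 µM replicate 1 or 3 when 1 library was left out (elsewhere up to 0.0912). MFSD11 on the opposite strand shares 36.7% of the SRSF2 exon bases, and no source used here says whether the counting used strand, so reads of the pair cannot be told apart. MFSD11 itself was at 0.04 ± 0.156 (adjusted p = 0.863 with edgeR).

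SRSF9 (chr12:120460649-120469748), the closest relative of SRSF1, rose at 100 µM. It held 223, 212 and 202 CPM in the controls, 249.7, 237 and 253 at 50 µM, and 249.6, 266 and 240.3 at 100 µM. All treated libraries lay above all controls, and the doses overlapped. The log2 fold change was 0.25 ± 0.0751 at 100 µM (edgeR adjusted p = 0.0441) and 0.22 ± 0.0751 at 50 µM (adjusted p = 0.0851). The 100 µM call held only without control replicate 1 or 100 µM replicate 3 when 1 library was left out (elsewhere up to 0.157). GATC on the opposite strand shares 46.2% of the SRSF9 exon bases and was at 0.12 ± 0.0643 at 100 µM (adjusted p = 0.202 with edgeR).

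Of the other 5 SRSF genes, SRSF4, SRSF5, SRSF6, SRSF11 and SRSF12, 0 passed in any comparison with edgeR or with DESeq2, and SRSF5 between the doses had an unadjusted p of 0.0322 in edgeR. SRSF6 lay at 0.12 at 50 µM and -0.04 at 100 µM, SRSF5 at 0.12 and -0.11, SRSF4 at -0.08 and -0.13, and SRSF11 at -0.06 and -0.08, each a log2 fold change with a standard error of 0.0853 to 0.122. SRSF11 held 105 and 97.0 CPM in 100 µM replicates 1 and 2 and 137 in replicate 3, and SRSF4 held 50.4, 51.6 and 67.5. Both fell at 100 µM when replicate 3 was left out (SRSF11 by 0.23, edgeR adjusted p = 0.0468; SRSF4 by 0.27, adjusted p = 0.0321). SRSF12 was barely present, between 0.518 and 1.24 CPM.

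**Figure D3:**
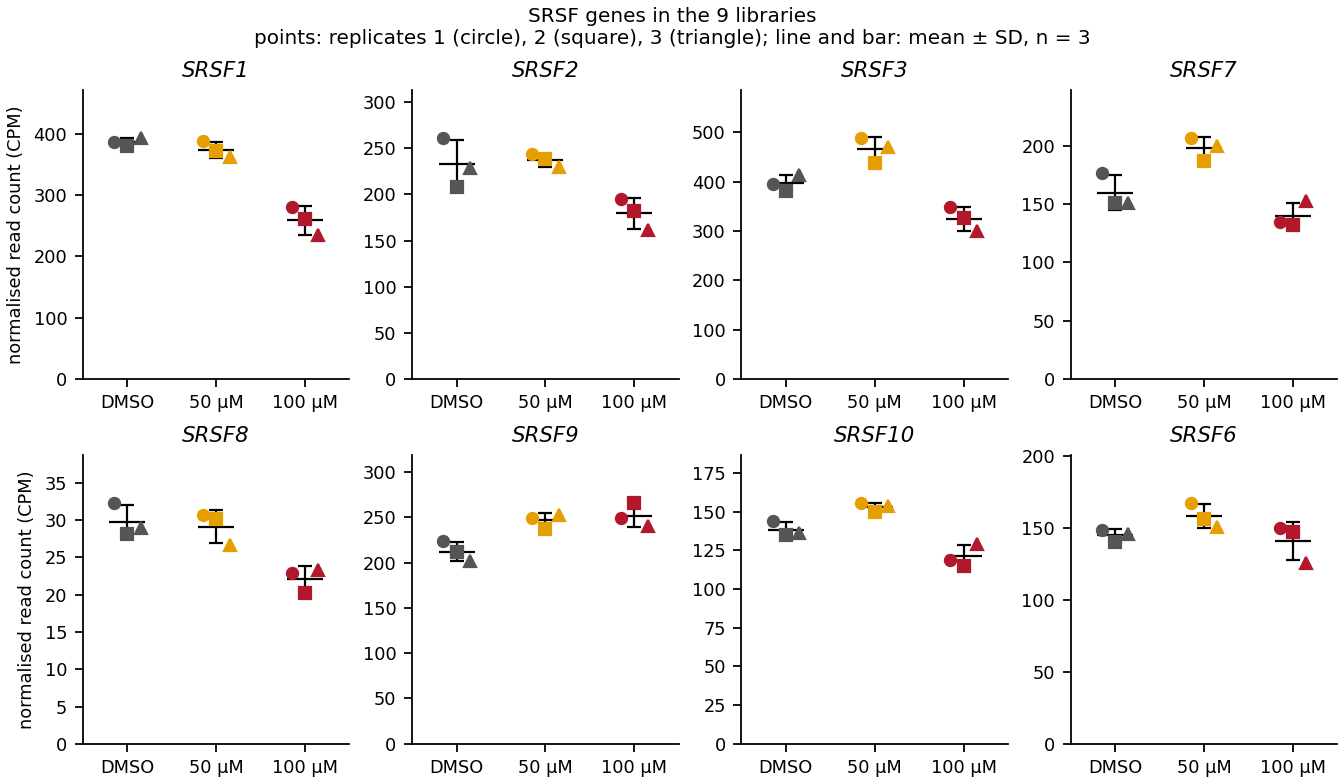
Normalised read counts (CPM) of 8 SRSF genes in each library by group, with the mean and SD of 3 libraries. SRSF1 drops from 386 ± 6.01 CPM in the controls to 259 ± 23.1 CPM at 100 µM, SRSF3 and SRSF7 are highest at 50 µM, and SRSF9 is above the controls at both doses.

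Per transcript length, SRSF9 was the most abundant SRSF gene, with 412 ± 29.1 TPM in the controls, 459 ± 6.31 at 50 µM and 467 ± 42.9 at 100 µM. Its share of the summed SRSF level was 24.4% ± 0.993 in the controls, 25.6% ± 0.624 at 50 µM and 31.4% ± 1.30 at 100 µM (SD, n = 3). The share of SRSF1 was 9.23% ± 0.53, 8.06% ± 0.227 and 6.69% ± 0.489 in the same order. The ratio of SRSF1 to SRSF9 in TPM was 0.359, 0.373 and 0.405 in the controls, 0.323, 0.327 and 0.297 at 50 µM, and 0.233, 0.205 and 0.202 at 100 µM. The ratio was thus lower at 50 µM than in every control and lowest at 100 µM, with no overlap; this pair was picked after the values were seen and is given without a test. The summed SRSF level was 1692 ± 127 TPM in the controls, 1797 ± 37.2 at 50 µM and 1485 ± 109 at 100 µM.

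HNRNPH1, which binds runs of guanine, had the largest fall of the HNRNP genes at 100 µM. It held 249.9, 222 and 257 CPM in the controls, 203, 201 and 181 at 50 µM, and 177, 170.1 and 150.1 at 100 µM. The 3 groups did not overlap and stepped down with the dose. The log2 fold change was -0.55 ± 0.0937 at 100 µM (edgeR adjusted p = 0.00434), and it passed in each of the 9 fits without 1 library (adjusted p at most 0.0286). At 50 µM it was -0.32 ± 0.0934 (edgeR adjusted p = 0.0547), past the threshold without 100 µM replicate 3 (0.00892). The authors' table places this gene on an alternate sequence, so no position is given.

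HNRNPH2 and HNRNPH3 are paralogs of HNRNPH1. HNRNPH2 (chrX:101408222-101414133) held 146, 126 and 158 CPM in the controls, 202, 172 and 166 at 50 µM, and 119, 134 and 138 at 100 µM. It was highest in all 50 µM libraries, while controls and 100 µM libraries overlapped. HNRNPH2 was lower at 100 than at 50 µM, at -0.47 ± 0.111 (edgeR adjusted p = 0.0486), a call that held only without 100 µM replicate 3 when 1 library was left out (elsewhere up to 0.195). The read-through gene RPL36A-HNRNPH2 shares 16.3% of the HNRNPH2 exon bases on the same strand and moved otherwise, with 0.67 ± 0.117 at 100 µM against the control (adjusted p = 0.005 with edgeR) and 0.28 ± 0.116 between the doses (0.192), so the division of reads between them is uncertain. HNRNPH3 (chr10:68331693-68343196) held 193, 163 and 177 CPM in the controls, 159, 158 and 146 at 50 µM, and 147, 146 and 132 at 100 µM. Both treated groups lay below the controls, and the doses overlapped. HNRNPH3 fell at 100 µM by 0.33 ± 0.0868 in log2 units (adjusted p = 0.0255 in edgeR), not past the threshold without control replicate 1 or 3 or 50 µM replicate 1 (up to 0.0889). HNRNPF, the remaining close relative, lay at -0.01 at 50 µM and -0.21 at 100 µM (adjusted p = 0.0874 with edgeR). In TPM, the ratio of HNRNPH1 to HNRNPH2 was 1.80 ± 0.0774 in the controls, 1.15 ± 0.0865 at 50 µM and 1.36 ± 0.212 at 100 µM, given without a test.

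HNRNPA2B1 (chr7:26189920-26200775), which acts in splicing and RNA transport and was the most abundant HNRNP gene per length (891 ± 42.5 TPM in the controls), fell at 100 µM. It held 992, 884 and 938 CPM in the controls, 909.5, 878 and 849 at 50 µM, and 758, 761 and 675 at 100 µM. The 100 µM libraries lay below all others, and the other groups overlapped. The log2 fold change was -0.36 ± 0.0827 (edgeR adjusted p = 0.0157), lost without control replicate 3 (0.0646). HNRNPA3 (chr2:177212694-177223959), of the same subfamily, held 606, 542 and 566 CPM in the controls, 562, 554 and 511 at 50 µM, and 477, 435 and 375 at 100 µM, the same order of groups. It fell by 0.41 ± 0.0995 in log2 units (adjusted p = 0.0186 in edgeR), lost without control replicate 2 or 3 (up to 0.0689). HNRNPA1 lay at -0.12 ± 0.0725 (adjusted p = 0.252 with edgeR) and its near-identical copy HNRNPA1L2 at -0.15 ± 0.0847 (0.243), and reads of these copies may have been split between them in the counting.

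HNRNPL, which binds CA repeats and is placed on an alternate sequence in the authors' table, was the most even of the members that fell. It held 295, 299 and 298 CPM in the controls, 291, 282 and 282 at 50 µM, and 256, 256 and 249 at 100 µM. No 2 groups overlapped. HNRNPL fell at 100 µM by 0.23 ± 0.0637 in log2 units (adjusted p = 0.0313 in edgeR), which passed only without control replicate 1 or 100 µM replicate 3 when 1 library was left out (elsewhere up to 0.122). HNRNPC (chr14:21209147-21269442), which binds uridine tracts and keeps cryptic exons out of mRNA, held 600.2, 591 and 639 CPM in the controls, 765, 689.8 and 761 at 50 µM, and 636, 659 and 662 at 100 µM. The 50 µM libraries lay above all others, and the control and 100 µM libraries overlapped. It rose at 50 µM by 0.28 ± 0.0758 in log2 units (adjusted p = 0.0451 in edgeR), and at 100 µM it was at 0.10 ± 0.0758 (0.383). In 8 of the 9 fits without 1 library the 50 µM call was lost (adjusted p up to 0.182 with edgeR).

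Of the 21 tested HNRNP genes 14 passed in no comparison with edgeR, while DESeq2 called HNRNPAB, HNRNPF and HNRNPR lower at 100 µM. In edgeR the 14 had log2 fold changes at 100 µM from -0.38 ± 0.134 for HNRNPAB to 0.13 ± 0.0969 for HNRNPUL2. HNRNPR, at -0.31 ± 0.101, was the nearest to the threshold (edgeR adjusted p = 0.0553). It passed without 100 µM replicate 1 and also without 100 µM replicate 3 (0.0487 for the latter). HNRNPAB held 272 and 267 CPM in 100 µM replicates 1 and 2 and 184 in replicate 3, and HNRNPM, a repressor of exons near GU-rich sites, held 317, 324 and 202. HNRNPUL2 held 245, 243 and 194 CPM in the same order, against 198, 213 and 215 in the controls. Without 100 µM replicate 3, HNRNPAB fell by 0.21 (edgeR adjusted p = 0.0369) and HNRNPUL2 rose by 0.24 (0.0195). In the annotation, HNRNPUL2-BSCL2 shares 44.1% of the HNRNPUL2 exon bases on the same strand and has no row of its own in the table. HNRNPDL, a binder of AU-rich RNA, lay at 0.19 at 50 µM and -0.09 at 100 µM. HNRNPK (984 ± 21.2 CPM in the controls, 904 ± 108 at 100 µM) and HNRNPU (757 ± 27.7 and 662 ± 93.1 CPM), a nuclear scaffold protein, did not pass. The summed level of the HNRNP genes was 7078 ± 198 TPM in the controls, 6685 ± 258 at 50 µM and 5902 ± 671 at 100 µM, where the lowest library was at 5143 TPM.

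**Figure D4:**
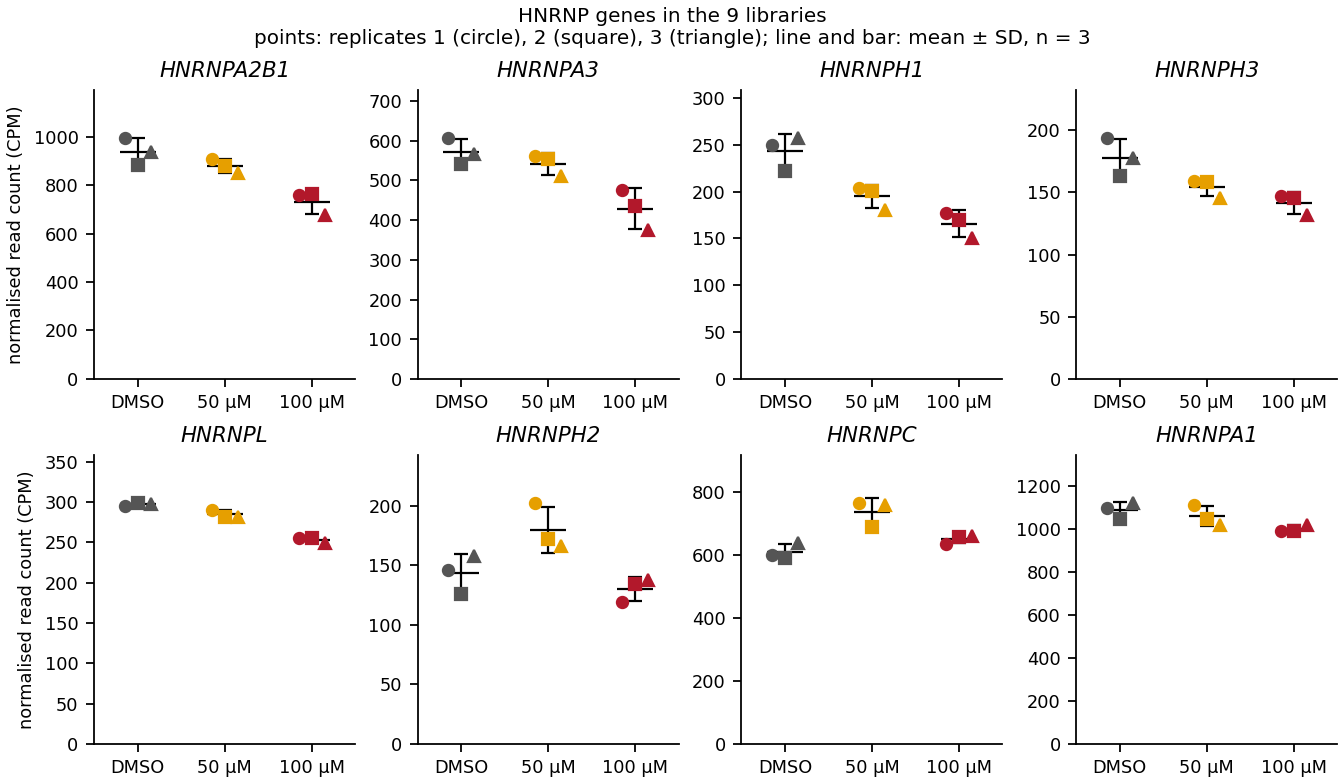
Normalised read counts (CPM) of 8 HNRNP genes in each library by group, with the mean and SD of 3 libraries. HNRNPH1 steps down from 243 ± 18.2 CPM in the controls to 195 ± 12.4 and 166 ± 14.2 CPM, while HNRNPH2 and HNRNPC are highest at 50 µM.

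**Figure D5:**
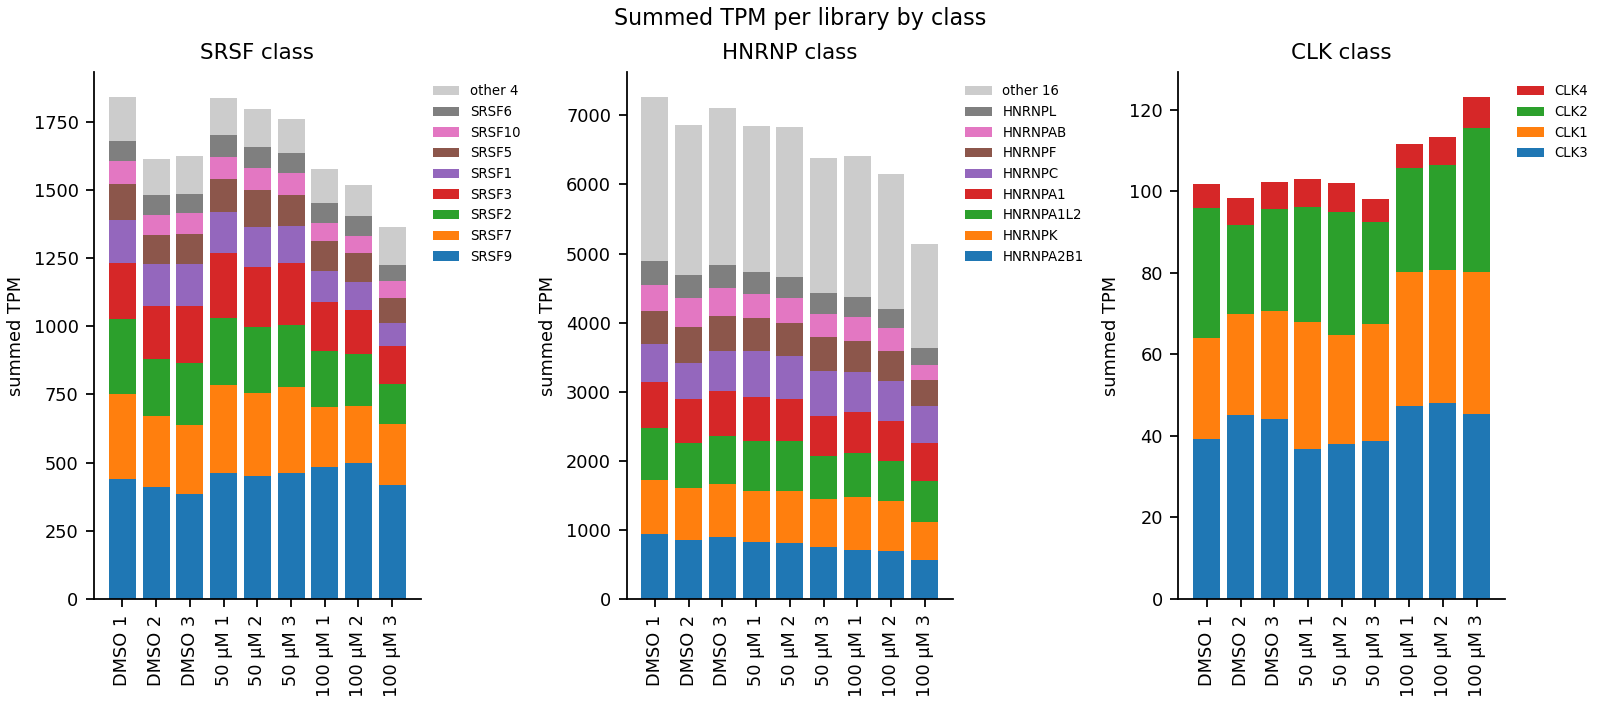
Summed TPM of the SRSF, HNRNP and CLK genes in each library, with the most abundant genes of each class in colour and the others in grey. The SRSF sum lies between 1364 and 1576 TPM at 100 µM against 1613 to 1839 TPM in the controls, and the CLK sum between 111.7 and 123 TPM against 98.4 to 102 TPM.

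The library 100 µM replicate 3 gave the lowest of the 9 values for 19 of the 37 members and the highest for 6 (CLK1, CLK2, CLK3, CLK4, SRSF11 and SRSF12), against 25.7% and 25.8% of all genes. Control replicate 1 gave the highest value for 8 members, among them HNRNPA2B1, HNRNPA3, HNRNPH3, SRSF2 and SRSF8, and the lowest for CLK1, CLK3 and CLK4, against 7.81% and 8.10% of all genes. For SRSF1 the fall at 100 µM was 0.50 in log2 units without both libraries (adjusted p = 9.36e-08 in edgeR), for HNRNPH1 it was 0.45 (5.46e-06), and for CLK1 the rise was 0.37 (0.0016). In that fit 48.6% of all genes passed at 100 µM. Both libraries were left out because they stood apart, which narrows the spread within groups. The smaller p-values are therefore no added evidence beyond the fit of all libraries.

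The number of transcripts annotated in GENCODE differed between members, from 1 for HNRNPA0, HNRNPA1L2 and HNRNPH2 upward, with a median of 11 against 8 over the matched genes. The authors' deposited table counts transcripts otherwise, with 6, 11 and 2 for these 3 genes. Its medians were 13 for the members and 11 for all genes. In GENCODE, 28 of the 37 tested members (75.7%) had at least 1 transcript marked for nonsense-mediated decay, against 42.8% of the tested genes that could be matched, and all 12 SRSF genes had one. A retained-intron transcript was annotated for 26 members (70.3%, against 57.4%). The table gives 1 value per gene, so the use of these transcripts was not analysed here.

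In the authors' deposited table, 1 member was higher and 7 were lower at 100 µM at a q-value under 0.05, beside 11.2% of all genes with a q-value. The authors' deposited table had 6 higher and 2 lower members at 50 µM (22.4% of all genes), and 1 higher and 8 lower between the doses (5.86%). SRSF1 (log2 fold change -0.58, q = 1.17e-05), HNRNPH1 (-0.55, q = 0.00029) and CLK1 (0.47, q = 0.00947) passed there at 100 µM, while SRSF9 (0.25, q = 0.0969), SRSF2 (-0.37, q = 0.064) and SRSF3 (-0.29, q = 0.0624) did not in the authors' deposited table.

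Other genes of the splicing machinery were read from the same fit. Over all genes in it, 10.7% rose and 10.3% fell at 100 µM, and 5.28% rose and 6.31% fell at 50 µM. Between the doses 2.25% were higher and 1.89% lower. Of 14 other kinases and phosphatases that act on SR proteins, 1 rose and 2 fell at 100 µM. The kinase DYRK1B rose 2.15-fold and held 4.76 ± 0.28 CPM in the controls and 10.2 ± 1.44 CPM at 100 µM (adjusted p = 0.00127 in edgeR), and the fallers PRPF4B, a spliceosomal kinase, and PPP1CC, a catalytic subunit of protein phosphatase 1, lay at -0.27 and -0.25 on the log2 scale. The other 11 did not pass. Of 28 SR-related proteins and coactivators, 5 fell at 100 µM and 23 did not pass; the fallers include LUC7L2 (-0.44), a partner of the U1 particle, PNN (-0.43), a speckle protein, and NKTR (-0.33). At 50 µM NKTR fell (-0.56) and TRA2B, a splicing activator related to SR proteins, rose (0.27), and TRA2B was lower at 100 than at 50 µM (-0.47).

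Of 24 genes for the assembly of spliceosomal particles and the nuclear import of SR and HNRNP proteins, 9 fell at 100 µM and 15 did not pass. Over all genes 10.3% fell at that dose. GEMIN5 (37.7 ± 4.75 CPM in the controls, 20.4 ± 1.41 at 100 µM) and GEMIN4 (68.4 ± 8.05 and 42.9 ± 9.79 CPM), parts of the SMN complex that loads the Sm ring, and WDR77 (56.5 ± 8.76 and 33.2 ± 9.79 CPM), a partner of PRMT5, had the largest falls, at -0.89, -0.67 and -0.77 on the log2 scale. At 50 µM, where 6.31% of all genes fell, 3 of the 24 fell. Of these, TNPO3 (-0.55), the import receptor of SR proteins, and GEMIN5 (-0.52) had the largest changes. Without control replicate 1 and 100 µM replicate 3, 13 of the 24 fell at 100 µM and 11 did not pass, in a fit where 24.4% of all genes fell. The median log2 fold change of these genes was -0.21 at 100 µM with all libraries, against 0.001 over all genes.

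The counts in this paragraph stand beside 5.28% of all genes higher and 6.31% lower at 50 µM. At 100 µM 10.7% of all genes were higher and 10.3% lower. Of 31 core genes of the U1 and U2 particles, 5 rose and 2 fell at 50 µM, and 4 fell at 100 µM, where 27 did not pass. SF3B6 (0.60) and SNRPD2 (0.46) rose at 50 µM, and SF3B3 (-0.50) and SF3A3 (-0.40) were among the genes that fell at 100 µM. Among 35 genes of the tri-snRNP, the PRP19 complex and the helicases, 2 rose and 4 fell at 100 µM, led by SYF2 (0.56), PRPF19 (-0.46) and AQR (-0.46), and at 50 µM AQR (-0.32) was the 1 gene that passed. Of 56 other RNA-binding regulators of splicing, 3 rose and 4 fell at 100 µM, led by PCBP4 (0.82), MSI2 (0.56) and TARDBP (-0.45), and 4 rose and 2 fell at 50 µM, where PCBP4 (0.84) and MSI2 (0.69) led again. Of 19 genes of nonsense-mediated decay and the exon junction complex, ETF1 (-0.42) fell at 100 µM and DHX34 (-0.75) at 50 µM, and of 10 genes of the minor spliceosome PDCD7 (-0.30) fell at 100 µM. These values are log2 fold changes of genes past the edgeR threshold, and the lists describe the setting of the members without a test of any list.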

How the data were processed

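RNA-seq of 9 samples was available as 1 table of 17492 genes. Per the labels' protocols, poly(A) RNA was captured with oligo(dT) beads and the libraries went through a duplex-specific nuclease step, which removes copies of abundant transcripts and can compress differences between genes. For each library the authors deposited expected counts, which are estimated read counts without normalisation, and also FPKM and TPM. They also deposited their own comparisons, as log2 fold changes, p-values and q-values. The gene positions given are theirs too, and some differ from GENCODE. Among these are the end of SRSF1 (by -19291 bases), the start of HNRNPA2B1 (-16863) and the end of CLK3 (5698). Per the submitters' processing notes, RSEM 1.2.12, Bowtie2 2.2.5 and HISAT2 2.0.4 were used with GRCh38.p13, without roles being named, and nothing states the strand setting. 9 further columns of normalised counts per library were not used.

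Expected counts were rounded, since 26.84% were whole. Genes were kept by filterByExpr (minimum count 10, minimum total 15), which removed 4660 genes with 0.042% of the counts, scaled by TMM, and tested in 1 fit of all 9 libraries with edgeR 4.0.16 (quasi-likelihood F test, robust, two-sided; R 4.3.3), with Benjamini-Hochberg adjustment over 12832 genes and a threshold of 0.05. The biological coefficient of variation was 14.4%, and fold changes had a median standard error of 0.134 in log2 units. Each standard error was taken as the size of the log2 change over the square root of its F value. The test was tested on simulated data, in which 100 genes changed 1.5-fold, 100 changed 2-fold and no library was made to stand apart. There it recovered 34% of 1.5-fold changes at 50 µM, 41% at 100 µM and 43% between the doses. Of 2-fold changes it recovered 86%, 82% and 78% in the same order. A larger share of genes passed in the real data, which alters the adjustment, so these recoveries do not carry over directly. The largest change of a tested member was 1.49-fold (SRSF1 at 100 µM), so members that did not pass may still have changed. Levels are TMM-scaled CPM, and TPM where genes are compared with each other.

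Values per library are given for members past the threshold, up to 6 per class and comparison, for the most abundant member of each class and for all CLK genes. From each list of other splicing genes up to 3 genes past the threshold are named at 100 µM and 2 at 50 µM, by size of change, and values of some listed genes are not reported here. A list of 4 long RNAs of nuclear speckles had 0 rows in the table. The members, lists and rules were chosen with earlier results of these data known. Alternatives were RLE and upper-quartile scaling, DESeq2 1.42.0, no filter, limma 3.58.1 on log2(FPKM + 0.1), log2(FPKM + 1) and log2(TPM + 0.1), a fit of the 2 groups compared, a replicate block, each library left out, and 2 libraries left out together.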

Additional observations from a re-analysis of the deposited data

How the results depend on the processing

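RLE and upper-quartile scaling left the 6 counts within 1.5 times and each of the 28 fold changes of members on its side of the threshold and in its direction. DESeq2 called 2531 genes at 50 µM, 6 of them members, and 1352 genes between the doses, 11 of them members. Without a filter, and with limma on log2(TPM + 0.1), 0 members passed at 50 µM. Fitting the 2 groups compared alone gave 4269 genes and 8 members at 50 µM, 1024 and 3 at 100 µM, and 251 and 3 between the doses. Without both control replicate 1 and 100 µM replicate 3 there were 7398 genes and 19 members at 50 µM, 6272 and 21 at 100 µM, and 6105 and 22 between the doses.

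Leaving out 1 library gave between 90 and 4739 genes and between 0 and 9 members at 50 µM, between 1055 and 3856 genes and between 3 and 19 members at 100 µM, and between 43 and 3561 genes and between 0 and 13 members between the doses. The highest counts came without 100 µM replicate 3. When 1 library or both were left out, fold changes turned for 7 members at 50 µM, 6 at 100 µM and 10 between the doses, of which 0 had passed the edgeR test with all libraries. Of these, HNRNPM between the doses went from -0.03 to 0.16 without 100 µM replicate 3 and was called higher without both libraries (0.17, edgeR adjusted p = 0.0134). Kinase changes turned too. CLK4 at 100 µM was at 0.15 with all libraries, 0.038 to 0.25 with 1 library left out and -0.028 without both. CLK2 between the doses was at 0.076 with all libraries and up to 0.19 with 1 left out. It was at -0.15 without 100 µM replicate 3 and -0.14 without both. CLK4 between the doses was at 0.078 with all libraries and up to 0.17 with 1 left out. It was at -0.013 without 50 µM replicate 3, -0.049 without 100 µM replicate 3 and -0.039 without both. The cause was not tested.

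With the replicate block 427 genes and 0 members passed at 50 µM, 1672 genes and 8 members at 100 µM, and 109 genes and 1 member between the doses. The numbers share no stated origin, and the correlations of the deviations of same-numbered libraries ran from -0.464 to 0.276, so they were not taken as pairs. The depth, at least 20061136 counts per library, leaves the HNRNPCL copies and SRSF12 too low to compare, and 3 libraries per group limit the rest.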
